A study of Mus musculus with 15 samples.

Results

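The T cell receptor complex, its coreceptors and their nearest partners were followed as 10 genes, taken by name out of the 22797 genes counted in each library. The set holds the CD3 chain genes Cd3d, Cd3e and Cd3g, the receptor beta constant region gene Trbc2, the coreceptor genes Cd8a and Cd8b1, the surface receptor genes Cd28, Cd5 and Cd6, and the kinase gene Zap70. All 10 were matched by their Entrez identifiers and all passed the filter on low counts. They were measured by sequencing polyA RNA of ILC3 and ILC2, the innate lymphoid cells of groups 3 and 2, which had been sorted from female mouse small intestine. Mice were killed at ZT4, at ZT10, at ZT16 or at ZT23 (zeitgeber time, in hours of the animals' day). There were 8 ILC3 libraries, 2 at each time, and 7 ILC2 libraries, 2 at each time except ZT16, which had 1. For each time the intestinal cells of 6 mice were pooled before staining and flow sorting, and no treatment is named. The strain, age and genotype of the mice and the antibodies and gates used for sorting are not given in the sources used here.

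In a T cell, the antigen receptor is an alpha and beta chain pair or a gamma and delta chain pair that reaches the surface only together with the CD3 gamma, delta and epsilon chains and the zeta chain encoded by Cd247. Binding of antigen leads the kinase LCK, brought close by the coreceptors CD8 or CD4, to phosphorylate CD3 and zeta, and ZAP-70 docks there and passes the signal on. CD8 occurs as a pair of an alpha and a beta chain, the form of conventional cytotoxic T cells, or as a pair of alpha chains, a form known from many T cells of the gut epithelium and from some dendritic cells. ILC2 and ILC3 are defined by the absence of a rearranged antigen receptor, although transcripts of constant regions can also come from receptor loci that have not been rearranged. ILC2 are known for GATA3 and type 2 cytokines, and ILC3 for interleukin-22.

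The CD3 genes lie side by side on chromosome 9 of GRCm38.p6, the build also called mm10. Cd3g (Entrez 12502, chr9:44969572-44980431) and Cd3d (Entrez 12500, chr9:44981769-44987052) are 1.3 kb apart, and Cd3e (Entrez 12501, chr9:44998735-45009663) lies 11.7 kb beyond Cd3d. Cd8b1 (Entrez 12526, chr6:71322788-71337492) and Cd8a (Entrez 12525, chr6:71373427-71379171) are 35.9 kb apart. Cd5 (Entrez 12507, chr19:10718107-10739026) and Cd6 (Entrez 12511, chr19:10789339-10830062) are 50.3 kb apart. Trbc2 (Entrez 100125263, chr6:41546730-41548181) is a constant region segment, and Cd28 (Entrez 12487, chr1:60746388-60773359) and Zap70 (Entrez 22637, chr1:36761798-36782821) are on chromosome 1. RefSeq promoter windows, from 250 bases before to 50 after a transcription start, were matched for 6 of the 10 genes in 8 windows. The 250 upstream bases of 5 of these genes are printed 5′ to 3′ because the CD3 genes and Cd8a varied together between libraries while Cd5 was high in the other cell type. Capitals mark exact matches, on either strand, to 5 short words: AGATAA, bound by factors of the GATA family, TGTGGT, bound by RUNX factors, GGAAGT, bound by ETS factors, CTTTGAA, bound by TCF1 and LEF1, and AGGTCA, bound by nuclear receptors.
Cd3g (chr9:44980432-44980681, minus strand): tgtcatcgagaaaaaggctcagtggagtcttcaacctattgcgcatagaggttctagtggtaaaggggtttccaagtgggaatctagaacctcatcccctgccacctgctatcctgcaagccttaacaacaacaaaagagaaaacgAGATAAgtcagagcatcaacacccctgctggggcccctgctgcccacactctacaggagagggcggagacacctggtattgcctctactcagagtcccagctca
Cd3d (chr9:44981536-44981785, plus strand): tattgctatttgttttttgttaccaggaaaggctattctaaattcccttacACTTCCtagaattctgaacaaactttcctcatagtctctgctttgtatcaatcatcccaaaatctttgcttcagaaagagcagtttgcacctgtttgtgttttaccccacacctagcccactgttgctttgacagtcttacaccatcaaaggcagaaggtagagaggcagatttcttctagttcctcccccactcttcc
Cd3e (chr9:45009612-45009861, minus strand): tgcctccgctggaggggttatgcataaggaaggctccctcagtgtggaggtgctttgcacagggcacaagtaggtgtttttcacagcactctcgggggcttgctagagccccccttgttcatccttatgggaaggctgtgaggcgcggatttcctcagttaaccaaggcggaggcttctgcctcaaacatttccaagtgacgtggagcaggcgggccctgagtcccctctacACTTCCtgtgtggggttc
Cd8a (chr6:71373177-71373426, plus strand): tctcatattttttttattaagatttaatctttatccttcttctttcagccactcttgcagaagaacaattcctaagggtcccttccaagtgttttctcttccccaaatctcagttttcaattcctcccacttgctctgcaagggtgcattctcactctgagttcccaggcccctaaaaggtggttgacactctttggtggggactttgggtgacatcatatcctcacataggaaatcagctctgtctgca
Cd5 (chr19:10738975-10739224, minus strand): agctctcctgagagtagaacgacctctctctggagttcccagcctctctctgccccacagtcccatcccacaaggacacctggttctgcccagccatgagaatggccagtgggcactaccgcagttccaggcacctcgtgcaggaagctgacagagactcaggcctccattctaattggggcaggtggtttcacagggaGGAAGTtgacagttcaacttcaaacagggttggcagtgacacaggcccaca
Cd3g held 1 AGATAA match, and Cd3d, Cd3e and Cd5 each held 1 GGAAGT match, which reads ACTTCC in Cd3d and Cd3e because it lies on the other strand. None of these 5 words was found in the Cd8a window. Of the 32851 promoter windows of all genes, AGATAA was in 11.2%, TGTGGT in 16.8%, GGAAGT in 23.8%, CTTTGAA in 5.13% and AGGTCA in 16.3%. The E-box CANNTG, not capitalized, was in 72.3% of all windows and in each of these 5. CANNTG can overlap the other words, and a match is given as a description of the letters in the window.

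The libraries had 5903163 to 24794403 counts in ILC3 and 4016298 to 18538315 in ILC2. The labelled cell types were matched by their markers: Il22, the interleukin-22 gene, had 313 to 1583 CPM (counts scaled to equal library size with TMM factors) in ILC3 and 1.06 to 21.9 in ILC2, and Gata3 had 15.1 to 53.0 CPM in ILC3 and 302 to 665 in ILC2. All ILC3 libraries carry the batch label 2 and all ILC2 libraries the batch label 1, and a batch effect cannot be told apart from an effect of cell type. Nothing in the labels states that a group's libraries were made from different pools of cells, so the p-values cover the variation among these samples alone, and that variation may be technical. In bulk samples, fewer cells of a type and less RNA per cell cannot be told apart. ILC3 ZT4 replicate 1 was lowest of all ILC3 libraries in the CD3 genes, ILC3 ZT23 replicate 2 was highest in 5 epithelial marker genes (2264 summed CPM, against a median of 272 in ILC3), and ILC2 ZT23 replicate 1 was highest in the antibody joining chain gene Jchain (188400 CPM, against 18100 to 95550 in the other ILC2 libraries). Results were computed with and without these 3 libraries.

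Between the cell types, the set split. The CD3 chain genes and Cd8a were higher in ILC3, whereas Cd8b1, Cd28, Cd5, Cd6 and, by a small margin, Trbc2 were lower in ILC3. By edgeR's quasi-likelihood test with Benjamini-Hochberg adjustment over all genes tested (threshold 0.05), 9 of the 10 genes differed, 4 higher and 5 lower in ILC3. Over all 15339 genes, 27.1% were called, 15.1% higher (2318 genes) and 12% lower (1839 genes). When counts were scaled by library size alone, the split of all genes was 2981 higher and 1315 lower, and their median log2 fold change was 0.26 in place of 0.11. The median over the 10 genes was -0.20. Cd8b1, Cd28, Cd5 and Cd6 were lower in all 8 ILC3 libraries than in any ILC2 library, and 5.57% of all genes had this order. None of the 10 was higher in all ILC3 libraries than in any ILC2 library, an order that 6.51% of all genes had, so the other 6 overlapped. Without the 3 libraries that stand apart, 9 of the 10 genes were again called.

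**Figure D1:**
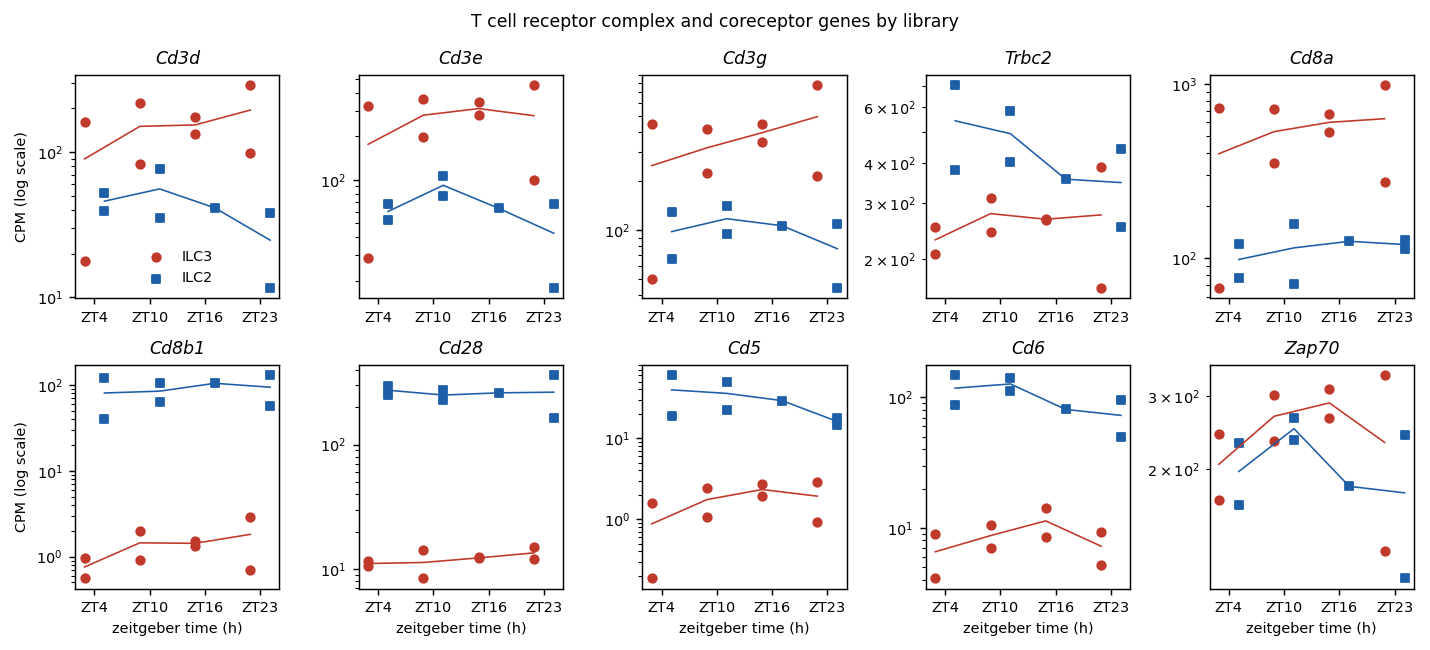
CPM of the 10 genes (log scale, a range for each gene) against zeitgeber time in hours, with 1 point for each library (ILC3 circles, ILC2 squares) and lines through the means at each time. Cd8b1, Cd28, Cd5 and Cd6 separate the cell types at every time, and the lowest ILC3 circle of Cd3d, Cd3e, Cd3g and Cd8a is ZT4 replicate 1.

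**Figure D2:**
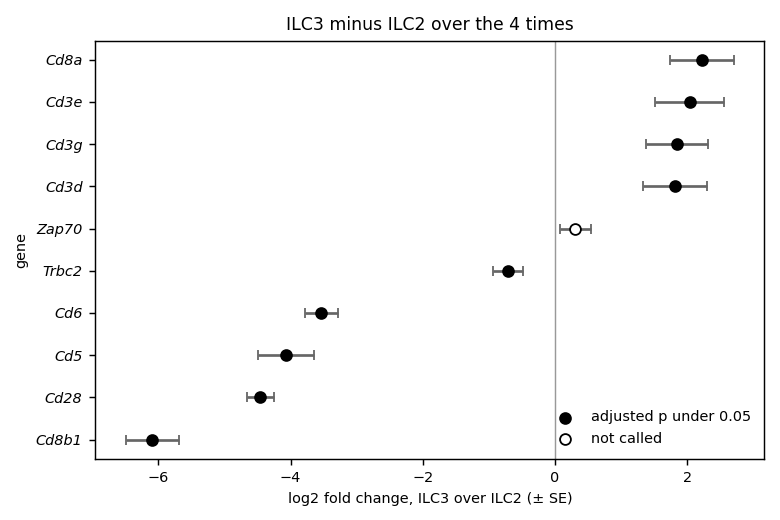
Fitted log2 fold change of ILC3 over ILC2 for each gene over the 4 times, with bars of ± 1 SE, filled where the adjusted p was under 0.05. Values run from 2.22 for Cd8a down to -6.09 for Cd8b1, and the open point is Zap70.

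The CD3 chains were higher in ILC3, with wide spread. Cd3e, which encodes the epsilon chain shared by both CD3 heterodimers, had 28.7 CPM at the lowest, 302 at the median and 456 at the highest of the 8 ILC3 libraries, against 17.7, 67.6 and 105.5 in the 7 ILC2 libraries. ILC3 ZT4 replicate 1 was the low ILC3 library, at 28.7 CPM. The other 7 ILC3 libraries had 100.2 CPM or more, and ZT23 replicate 2 (100.2) lay just under the highest ILC2 library (105.5). In the fit Cd3e was 4.11-fold higher in ILC3, or 2.04 ± 0.52 on the log2 scale (fold change ± SE, adjusted p = 0.0120, edgeR).

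Cd3d, the delta chain gene, had 17.9, 147 and 290.5 CPM at the lowest, median and highest ILC3 library, against 11.6, 39.2 and 76.6 in ILC2. Cd3g, the gamma chain gene, had 50.2, 382 and 781 CPM in ILC3, against 44.1, 106.5 and 141.0 in ILC2. For both genes ILC3 ZT4 replicate 1 lay within the ILC2 range and the other 7 ILC3 libraries lay above it. Cd3d had a log2 fold change of 1.81 ± 0.48 (adjusted p = 0.015, edgeR) and Cd3g of 1.85 ± 0.47 (adjusted p = 0.0115). Without ILC3 ZT4 replicate 1 the values were 2.02 for Cd3d, 2.26 for Cd3e and 2.06 for Cd3g. Without all 3 libraries that stand apart they were 2.02, 2.27 and 2.09. Without the other library of that group, ILC3 ZT4 replicate 2, they were lower, at 1.23 for Cd3d, 1.38 for Cd3e and 1.27 for Cd3g, and all 3 were still called. The size of the CD3 difference thus depends on which of the ZT4 libraries enters.

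No difference in the proportions of the 3 chains passed the test. The log2 ratio of Cd3g to Cd3e counts was 0.53 ± 0.33 in ILC3 and 0.67 ± 0.50 in ILC2 (SD, n = 8 and 7), a difference of -0.15 that did not pass a two-sided exact permutation test over 6435 splits (p = 0.499, Benjamini-Hochberg p over 4 ratios 0.499). The log2 ratio of Cd3d to Cd3e was -0.80 ± 0.38 in ILC3 and -0.64 ± 0.35 in ILC2, a difference of -0.16 (exact permutation p = 0.406, adjusted 0.499). Per kilobase of the deposited gene length, Cd3g had the highest level of the CD3 genes in all 8 ILC3 libraries, with a mean of 358 ± 213 RPKM (TMM-scaled CPM per kilobase), followed by Cd3e at 182 ± 99.7 and Cd3d at 110.5 ± 63.4. In ILC2 the means were 96.6 ± 33.2 for Cd3g, 45.0 ± 18.4 for Cd3e and 31.6 ± 14.8 for Cd3d.

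The beta constant region went the other way. Trbc2 had 162, 259 and 388 CPM at the lowest, median and highest ILC3 library, against 252, 405 and 706 in ILC2, so the groups overlapped. Its log2 fold change was -0.71 ± 0.22 (adjusted p = 0.0340, edgeR). The call was lost with library size as the only scaling (-0.56, adjusted p = 0.106), and it held in 12 of 21 alternatives, over which the adjusted p ran from 0.00587 to 0.106. Leaving out ILC2 ZT4 replicate 1, ILC2 ZT10 replicate 2, ILC2 ZT23 replicate 2, ILC3 ZT4 replicate 1, or either ILC3 replicate of ZT10 or ZT16 gave adjusted p from 0.0503 to 0.0762. Trbc2 and the neighbouring copy Trbc1 are nearly identical in sequence, and how reads that match both were counted is not given in the sources used here, so the level of each is uncertain. Trbc1 had the same direction (-0.74 ± 0.24, adjusted p = 0.0363). Per kilobase, Trbc2 was highest of the 10 genes in both cell types, at 504 ± 130 RPKM in ILC3 and 860 ± 293 in ILC2, above the gene next in order in 7 of 8 ILC3 libraries and 7 of 7 ILC2 libraries.

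Among the other receptor chain genes, the delta constant region Trdc and a gamma constant region were higher in ILC3. Trdc had 79.1, 398 and 684 CPM at the lowest, median and highest ILC3 library, against 31.3, 61.9 and 105.5 in ILC2. ILC3 ZT4 replicate 1, at 79.1 CPM, was again the ILC3 library inside the ILC2 range. Trdc had a log2 fold change of 2.41 ± 0.45 (adjusted p = 0.00185, edgeR), and that of Trgc2 was 2.52 ± 0.51 (adjusted p = 0.00289). Trac, the alpha constant region, averaged 43.0 ± 22.8 CPM in ILC3 and 62.2 ± 33.2 in ILC2 and was not called (-0.46 ± 0.42, adjusted p = 0.455). Cd247, the zeta chain gene, averaged 53.9 ± 25.0 CPM in ILC3 and 27.2 ± 11.6 in ILC2 and missed the threshold (1.04 ± 0.37, adjusted p = 0.0584). Trgc1 (0.74 ± 0.36, adjusted p = 0.155) and Trgc4 (-0.08 ± 0.33, adjusted p = 0.911) were not called, and the gamma constant regions are also near copies of each other. Ptcra, the surrogate alpha chain of thymocyte precursors, had 2 counts over the 8 ILC3 libraries and 124 over the 7 ILC2 libraries (adjusted p = 0.00254). In all, 4 of 8 tested receptor chain genes were called, 2 higher and 2 lower, with a median log2 fold change of 0.33. Over all genes 27.1% were called.

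Counts on variable segments, which precede the constant regions in a rearranged receptor gene, separated the cell types for the gamma chain but not for all chains, and they are given without a test. Summed over 7 gamma variable segments, ILC3 had 51.0, 367.5 and 597 CPM at the lowest, median and highest library, against 16.4, 26.9 and 41.8 in ILC2, with no overlap. The sums over 4 gamma joining segments did overlap, at 12.65, 70.5 and 107.9 CPM in ILC3 and 28.2, 58.15 and 68.35 in ILC2. Those over 4 gamma constant regions overlapped too (123 to 874 CPM in ILC3, 190 to 416 in ILC2). Over 10 variable segments that the alpha and delta chains share, ILC3 had 16.0, 92.9 and 159 CPM, against 3.50, 10.2 and 21.96 in ILC2. The sums over 5 delta segments overlapped, at 11.2, 76.1 and 148.5 CPM in ILC3 and 12.1, 35.0 and 62.2 in ILC2, and 1 of them, Trdv4, had a lower mean in ILC3 (4.32 ± 2.17 CPM) than in ILC2 (21.2 ± 11.6). The sums over 22 beta segments overlapped widely (13.95 to 68.9 CPM in ILC3, 27.2 to 89.8 in ILC2), as did those over 105 alpha segments (1.12 to 64.8 in ILC3, 11.2 to 49.0 in ILC2). ILC3 ZT4 replicate 1 was the lowest ILC3 library in each of these sums. Segments were counted as shared only where the symbol carries a delta name (dv). Other copies of the same families thus stand among the 105 alpha segments. Of these, Trav15n-2 (7.55 ± 4.26 CPM in ILC3, 0.35 ± 0.48 in ILC2) and Trav16 (4.50 and 0.571) had higher means in ILC3. Trav6d-4 (0 in ILC3, 2.29 ± 3.03 in ILC2) and Trav6-4 (0.0078 and 1.25) had lower means. The overlap of the alpha sums holds for that grouping only. Of the recombination genes, Dntt, which adds bases at receptor joints, had 13 counts over the ILC3 libraries and 2976 over the ILC2 libraries (adjusted p = 1.96e-06), Rag1 had 1 count in ILC3 and 24 in ILC2, and Rag2 had 0 in both.

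**Figure D3:**
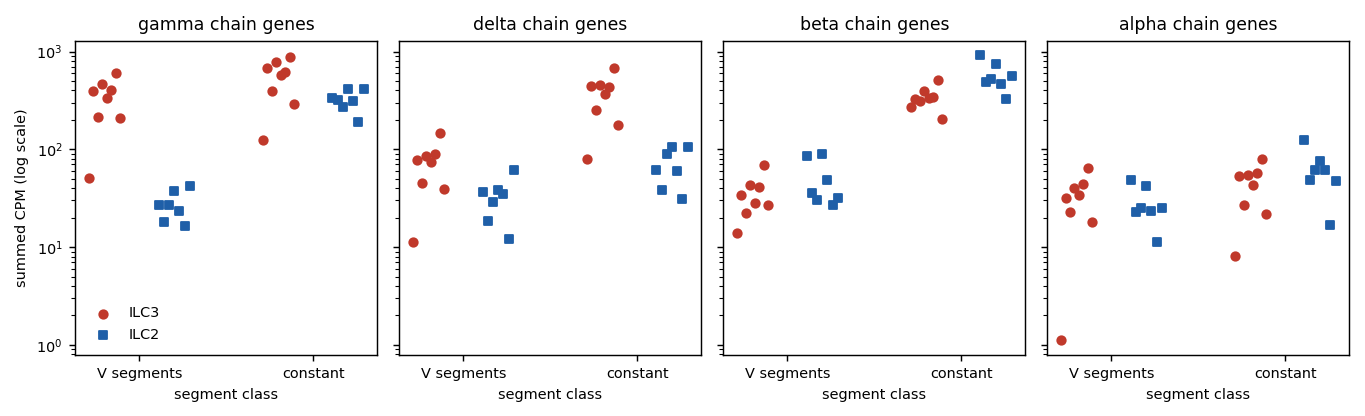
Summed CPM (log scale) of variable segments and of constant regions for the gamma, delta, beta and alpha chains, with 1 point for each library (ILC3 circles on the left of each pair, ILC2 squares on the right). The gamma variable sums do not overlap, at 51.0 to 597 CPM in ILC3 and 16.4 to 41.8 in ILC2. The delta, beta and alpha variable sums do. Segments that the alpha and delta chains share by name are not drawn.

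The CD8 genes were opposed. Cd8a, the alpha chain gene, had 67.3, 601 and 988 CPM at the lowest, median and highest ILC3 library, against 71.6, 120.0 and 158 in ILC2. ILC3 ZT4 replicate 1, at 67.3 CPM, was below every ILC2 library, and the other 7 ILC3 libraries, from 273 CPM, were above them. The log2 fold change was 2.22 ± 0.49 (adjusted p = 0.00484, edgeR), or 2.44 without ILC3 ZT4 replicate 1 and 2.58 without the 3 libraries that stand apart. Without ILC3 ZT4 replicate 2 it was 1.58 and still called.

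Cd8b1, the beta chain gene, had 0.558, 1.14 and 2.93 CPM at the lowest, median and highest ILC3 library, against 40.5, 104.9 and 131 in ILC2. The 8 ILC3 libraries held 221 counts in all, from 3 to 50 in a library, and the 7 ILC2 libraries 7404. Cd8b1 was thus 68.3-fold lower in ILC3 (log2 fold change -6.09 ± 0.40, adjusted p = 1.05e-06, edgeR), with values between -6.42 and -5.84 over 21 alternatives.

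The ratio within a library does not depend on the scaling between libraries. The log2 ratio of Cd8b1 to Cd8a counts was -8.45 ± 1.31 in ILC3 and -0.40 ± 0.50 in ILC2, a difference of -8.04. The exact permutation p was 0.000155, the smallest that the 6435 splits can give, and 0.000622 adjusted over the 4 ratios. Per kilobase, there were 42.2 to 632 Cd8a for each Cd8b1 in ILC3 libraries and 0.388 to 1.00 in ILC2 libraries. Cd4, the other coreceptor gene, averaged 99.3 ± 27.6 CPM in ILC3 and 105.8 ± 27.3 in ILC2 and was not called (-0.10 ± 0.22, adjusted p = 0.804).

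**Figure D4:**
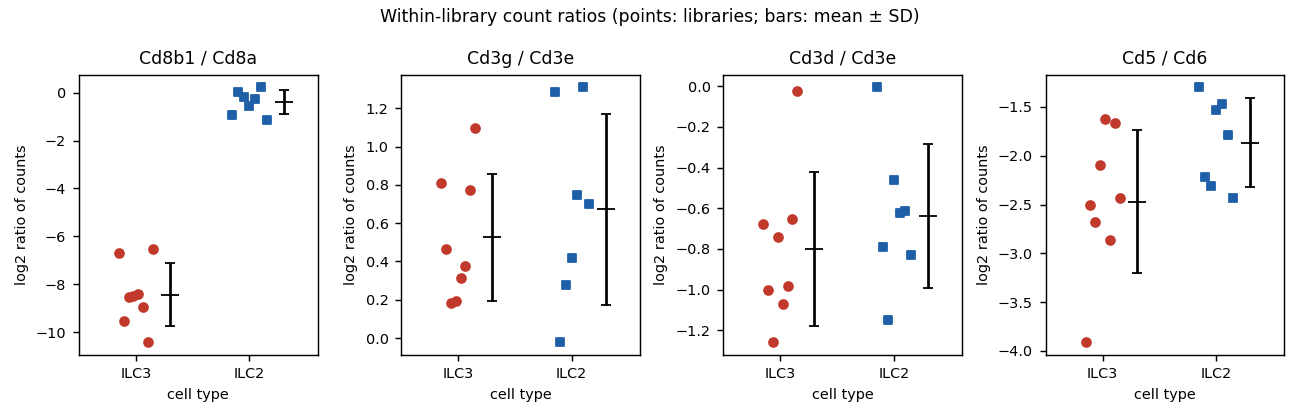
Log2 ratios of counts within each library for 4 gene pairs, ILC3 circles on the left and ILC2 squares on the right, with bars for the mean ± SD (n = 8 and 7). The Cd8b1 to Cd8a ratio separates the cell types, with means of -8.45 in ILC3 and -0.40 in ILC2, and the other 3 pairs overlap.

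Some markers of other cells varied with these genes and others did not. The 3 of 6 listed gamma delta T cell markers found under the listed symbols (Trdc, Sox13 and Blk) summed to 101 to 704 CPM in ILC3 and 42.0 to 136 in ILC2, lowest in ILC3 ZT4 replicate 1, and none was at 0 throughout. The sum was mostly Trdc, the 1 of the 3 that was called, where 27.1% of all genes were called. Sox13 averaged 3.41 ± 3.46 CPM in ILC3 and 6.21 ± 3.34 in ILC2, while Blk averaged 16.4 ± 3.04 in ILC3 and 14.8 ± 6.49 in ILC2. The 6 NK cell markers summed to 210.2 to 3054 CPM in ILC3 and 105 to 197 in ILC2, again lowest in ILC3 ZT4 replicate 1, and 1 was at 0 in all ILC2 libraries. That sum was mostly the granzyme gene Gzma (153 to 2975 CPM in ILC3, 44.4 to 112 in ILC2). Of the 6 genes 4 were called higher and the perforin gene Prf1 lower in ILC3 (17.1 ± 6.90 CPM in ILC3, 62.3 ± 15.4 in ILC2). Among all genes, 15.1% were called higher and 12% lower. ILC3 ZT4 replicate 1 was not the lowest ILC3 library for the NK receptor genes Ncr1 (13.95 CPM, lowest 7.73) and Klrb1c (34.2 CPM, lowest 21.9). The 6 mast cell markers were all called higher in ILC3, as were 15.1% of all genes. They summed to 1484 to 3678 CPM in ILC3, against 143 to 623 in ILC2, where 1 was at 0 throughout. The ILC3 sum was lowest in ZT4 replicate 1 and highest in ZT23 replicate 1, as for the CD3 genes and Cd8a. Mcpt1 (300 to 1723 CPM) and Mcpt2 (154 to 931) had this order. ILC3 ZT4 replicate 1 was not the lowest for Cpa3 (122 CPM, lowest 53.4), Kit (870, lowest 359) or Fcer1a (16.0, lowest 11.85). For Cma1 it was the highest ILC3 library (21.4 CPM). The 8 markers of CD8-bearing dendritic cells summed to 939 to 3376 CPM in ILC3 and to 426 to 1000 in ILC2. The ILC3 sum was highest in ZT4 replicate 1, where the CD3 genes and Cd8a were lowest. It was mostly Itgax (1357 CPM) and Wdfy4 (1283) in that library. The list was mixed, with 6 called higher and 1 lower in ILC3, where 15.1% and 12% of all genes were. Irf8 averaged 193 ± 48.1 CPM in ILC3 and 333 ± 116 in ILC2. The 8 markers of plasmacytoid dendritic cells, which also express Dntt and Ptcra, summed to 156 to 217 CPM in ILC3 and 816 to 1970 in ILC2, and the 7 of B and plasma cells to 281 to 4204 in ILC3 and 18560 to 191000 in ILC2. None of the markers of these 3 lists was at 0 throughout. In ILC2 the plasmacytoid sum was lowest in ZT4 replicate 1 and highest in ZT23 replicate 1, as was Cd8b1 (40.5 and 131 CPM). The B and plasma cell sum was lowest in ZT23 replicate 2 and highest in ZT23 replicate 1, as was Cd28 (164.8 and 365 CPM). Cd5 (14.4 and 60.5 CPM) and Cd6 (49.9 and 149) were lowest in ILC2 ZT23 replicate 1 and highest in ILC2 ZT4 replicate 1. The part of such cells in the difference of any of the 10 genes was not tested.

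The surface receptors CD28, CD5 and CD6 were all far lower in ILC3. Cd28, which encodes the costimulatory receptor for CD80 and CD86, had 8.39, 12.1 and 14.9 CPM at the lowest, median and highest ILC3 library, against 164.8, 261 and 365 in ILC2. No libraries overlapped, and the highest ILC3 library was 1.78 times the lowest, the narrowest range of the 10 genes in ILC3. In the fit Cd28 was 21.9-fold lower in ILC3 (log2 fold change -4.46 ± 0.20, adjusted p = 9.65e-08, edgeR).

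Cd5, which encodes a scavenger receptor that restrains antigen receptor signals, had 0.186, 1.74 and 2.92 CPM in ILC3, against 14.4, 22.6 and 60.5 in ILC2. The lowest ILC3 value rests on 1 count, in ZT4 replicate 1. Cd5 was 16.7-fold lower in ILC3 (log2 fold change -4.06 ± 0.42, adjusted p = 2.20e-05, edgeR), or -4.68 on the log2 scale without ILC3 ZT4 replicate 2. Cd6, its neighbour on chromosome 19 and a related scavenger receptor, had 4.09, 8.74 and 14.1 CPM in ILC3, against 49.9, 95.9 and 149 in ILC2. Cd6 was 11.6-fold lower in ILC3 (log2 fold change -3.53 ± 0.25, adjusted p = 1.92e-06, edgeR). The log2 ratio of Cd5 to Cd6 was -2.47 ± 0.73 in ILC3 and -1.86 ± 0.45 in ILC2, a difference of -0.61 that did not pass (exact permutation p = 0.0744, adjusted 0.149).

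Of 13 other coreceptors and accessory receptors, 9 were called, 3 higher and 6 lower in ILC3 (median -0.14), where 27.1% of all genes were called. Cd7 (3.33 ± 0.41, adjusted p = 7.81e-05), the nectin-like ligand receptor gene Crtam (4.04 ± 0.57, adjusted p = 0.00022) and the costimulatory receptor gene Tnfrsf9 (1.42 ± 0.26, adjusted p = 0.00174) were higher by edgeR. The CD28 relative Ctla4 (-1.81 ± 0.16, adjusted p = 7.97e-06), the adhesion receptor gene Cd2 (-2.45 ± 0.23, adjusted p = 1.04e-05) and Slamf6 (-2.37 ± 0.27, adjusted p = 4.11e-05) were lower. Cd7 averaged 1096 ± 531 CPM in ILC3 and 109 ± 21.95 in ILC2. All its ILC3 libraries were above all ILC2 libraries, an order that 6.51% of all genes had.

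The kinase that docks on the phosphorylated receptor did not pass the test. Zap70 had 127, 255 and 337.5 CPM at the lowest, median and highest ILC3 library, against 109, 231 and 266 in ILC2, and the ranges overlapped in part. ILC3 ZT10 replicate 2 (302.1 CPM), ZT16 replicate 1 (311.5), ZT16 replicate 2 (266.5) and ZT23 replicate 1 (337.5) lay above the highest ILC2 library (265.6). The log2 fold change was 0.31 ± 0.24 (adjusted p = 0.375, edgeR), and it was called in 0 of 21 alternatives, with values from 0.09 to 0.48. Lck, which encodes the kinase upstream of ZAP-70, averaged 305 ± 146 CPM in ILC3 and 142 ± 44.3 in ILC2 (1.10 ± 0.36, adjusted p = 0.0386). Lat, the adaptor that ZAP-70 phosphorylates, averaged 61.0 ± 16.1 CPM in ILC3 and 158 ± 53.0 in ILC2 (-1.32 ± 0.22, adjusted p = 0.000811).

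Of 26 proximal signalling genes, 12 were called, 7 higher and 5 lower in ILC3 (median -0.13). For this and the next lists, the share over all genes was 27.1% called, 15.1% higher and 12% lower. The transcription factor gene Nfatc2 (1.54 ± 0.19), the adaptor gene Trat1 (2.51 ± 0.47) and the Tec family kinase gene Txk (1.04 ± 0.24) were higher, and the adaptor gene Skap1 (-1.51 ± 0.24) was lower. Of 16 genes that restrain receptor signals, 10 were called, 4 higher and 6 lower (median -0.11). The adaptor genes Lax1 (-3.10 ± 0.32) and Sit1 (-2.80 ± 0.35) and the phosphatase gene Ubash3a (-3.00 ± 0.32) were lower in every ILC3 library than in any ILC2 library, an order that 5.57% of all genes had. Sla (0.88 ± 0.21), the phosphatase gene Ptpn22 (0.78 ± 0.20) and Dok1 (0.67 ± 0.19) were higher. Of 14 T lineage transcription factor genes, 9 were called, 3 higher and 6 lower (median -0.37). Tcf7 (2.03 ± 0.25), Zbtb16 (1.57 ± 0.31) and Tox (1.07 ± 0.21) were higher in ILC3, and Gata3 (-3.85 ± 0.25), Satb1 (-1.19 ± 0.20) and Bcl11b (-1.75 ± 0.31) were lower. These are log2 fold changes with SE, and edgeR's adjusted p for them ran from 1.03e-06 (Gata3) to 0.0202 (Dok1).

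The order of levels per kilobase differed between the cell types. In ILC3 it was Trbc2, Cd3g, Cd3e, Cd8a, Zap70 and Cd3d, the last at 110.5 ± 63.4 RPKM, followed after a wide gap by Cd6 at 2.78 ± 1.03, Cd28 at 2.78 ± 0.47, Cd8b1 at 0.963 ± 0.555 and Cd5 at 0.831 ± 0.462. Cd3d was above Cd6 in 8 of 8 ILC3 libraries. Several neighbours in this order did not differ beyond their spread: Cd3e was above Cd8a in 5 of 8 libraries, Zap70 above Cd3d in 3 of 8, and Cd6 above Cd28 and Cd8b1 above Cd5 in 5 of 8 each. In ILC2 there was no such gap, and 8 of the 10 genes lay between Cd3g at 96.6 ± 33.2 and Cd3d at 31.6 ± 14.8, with Trbc2 above and Cd5 below, at 14.6 ± 8.53 RPKM.

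Within ILC3 the CD3 genes and Cd8a varied together from library to library. Across the 8 ILC3 libraries, on log2(CPM + 0.5), Cd3e correlated with Cd8a with a Pearson's r of 0.990 (exact permutation p = 9.92e-05) and a Spearman's rho of 0.929 (exact permutation p = 0.00223). Without the 2 libraries farthest from the median of Cd3e the r was 0.986. With Cd3d it was 0.959 (exact permutation p = 0.000794, rho 0.976, p = 0.000397), and 0.992 without those 2 libraries. With Cd3g it was 0.971 (exact permutation p = 0.000149, rho 0.905, p = 0.00456), and 0.965 without them. Trdc behaved alike, at 0.986 (exact permutation p = 4.96e-05, rho 0.976, p = 0.000397), and 0.986 without them. So did the alpha constant region Trac, at 0.985 (exact permutation p = 7.44e-05, rho 0.976, p = 0.000397), and 0.991 without them. The zeta chain gene Cd247 was at 0.985 (exact permutation p = 2.48e-05), and 0.993 without them. Over 30 relations the Benjamini-Hochberg p of r was 0.000744 for Cd8a, Trdc, Trac and Cd247, 0.00397 for Cd3d and 0.000893 for Cd3g.

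The genes that were low in ILC3 were mixed. Cd5 followed Cd3e in ILC3 (r 0.944, exact permutation p = 0.00112, rho 0.857, p = 0.0107, adjusted p of r 0.00478, and 0.752 without the 2 farthest libraries). For Cd6 the r of 0.889 (exact permutation p = 0.00154, rho 0.905, p = 0.00456, adjusted p of r 0.00577) became 0.579 without them and so rests partly on those libraries. For Trbc2 the r of 0.732 did not pass (exact permutation p = 0.0428, adjusted 0.0917) and the rho of 0.905 did (p = 0.00456, adjusted 0.0152). Without the 2 farthest libraries its r was 0.812. Zap70, not called between the cell types, was alike, with r 0.792 (exact permutation p = 0.0248, adjusted 0.0655) and rho 0.833 (p = 0.0154, adjusted 0.0419). Cd28 (r -0.01, exact permutation p = 0.973, rho 0.119, p = 0.793) and Cd8b1 (r 0.158, exact permutation p = 0.706, rho 0.0714, p = 0.882) showed no relation with Cd3e that passed. Without the 2 farthest libraries the r was 0.737 for Cd28 and -0.02 for Cd8b1, so the value for Cd28 rests on those libraries. Across the 7 ILC2 libraries, none of 15 relations with Cd3e passed the adjustment. The largest, with Cd3d (r 0.906, exact permutation p = 0.0284, rho 0.321, p = 0.498, adjusted p of r 0.0655), turned to -0.98 without the 2 farthest libraries and so rests on them.

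**Figure D5:**
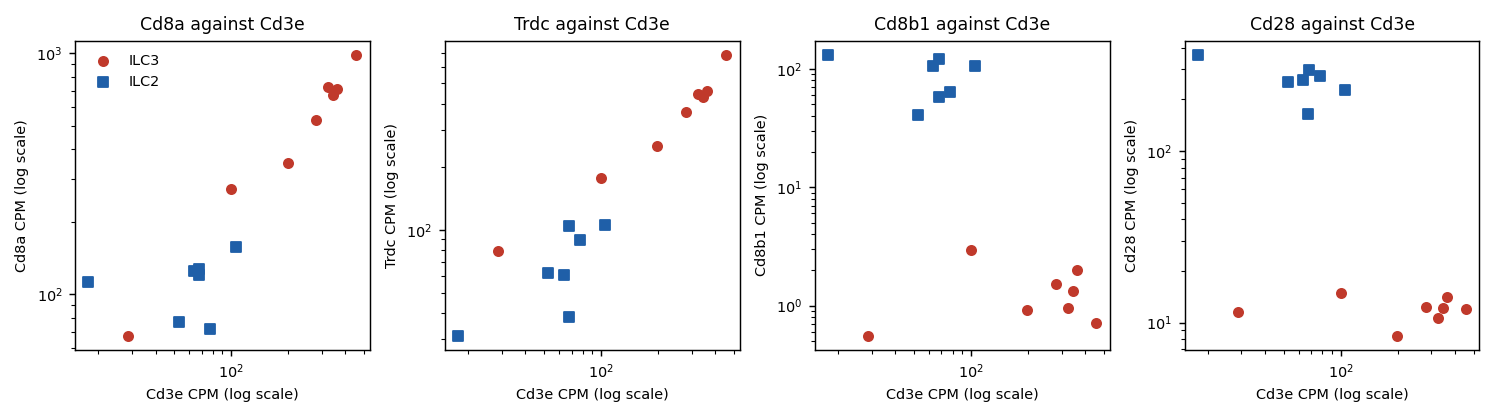
CPM of Cd8a, Trdc, Cd8b1 and Cd28 against CPM of Cd3e (log scales), with 1 point for each library (ILC3 circles, ILC2 squares). In ILC3, Cd8a and Trdc lie on a line with Cd3e (r 0.990 and 0.986 on log2 values), and Cd8b1 and Cd28 do not (0.158 and -0.01, the value for Cd28 being 0.737 without the 2 libraries farthest from the median of Cd3e). Trac, not drawn, had an r of 0.985 with Cd3e in ILC3.

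The 2 genes most like each of the 10 were sought by Pearson's r of log2 CPM deviations from the cell type mean over the 15 libraries, among 9042 genes with a mean of at least 10 CPM, as a description. For Cd3d they were the chemokine gene Ccl5 (0.966) and the cystatin gene Cst7 (0.963), for Cd3e Rgs3 (0.977) and Baiap3 (0.975), and for Cd3g again Ccl5 (0.983) with the cytotoxic granule gene Nkg7 (0.965). For Cd8a they were the death ligand gene Tnfsf10 (0.973) and Cd7 (0.966), and for Trbc2 its near copy Trbc1 (0.973) and Abcb9 (0.947). Cd5 was most like Igflr1 (0.928) and Gimap4 (0.925), Cd6 like the transcription factor gene Tbx21 (0.929) and the interleukin-12 receptor gene Il12rb2 (0.903), and Zap70 like the interleukin-27 receptor gene Il27ra (0.959) and Evl (0.955). Cd28 was most like Commd3 (0.915) and Erp44 (0.910), and Cd8b1 like Med19 (0.886) and Tfg (0.883), the lowest values of the 10 genes. The libraries share depth and cell makeup within a sample, and the 8 ILC3 and 7 ILC2 deviations enter together.

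Over the day no gene of the set was called in either cell type. In ILC3, Cd3e was at 176 ± 209 CPM at ZT4, 281 ± 116 at ZT10, 312 ± 45.1 at ZT16 and 278 ± 252 at ZT23 (SD, n = 2 each), and in ILC2 at 60.3 ± 10.6, 91.6 ± 19.6, 63.5 (1 library) and 42.7 ± 35.2. At ZT4 the ILC3 replicates were 28.7 and 324 CPM and at ZT23 they were 456 and 100.2, so the spread within a time was as wide as that between times. Cd28 averaged 11.1 ± 0.686, 11.3 ± 4.07, 12.3 ± 0.166 and 13.5 ± 2.05 CPM in ILC3, and 274 ± 31.2, 251 ± 31.8, 261 (1 library) and 265 ± 141 in ILC2. Cd8b1 averaged 0.757 ± 0.282, 1.45 ± 0.754, 1.43 ± 0.143 and 1.82 ± 1.57 CPM in ILC3, and 80.8 ± 57.0, 84.9 ± 29.7, 104.9 (1 library) and 94.3 ± 52.4 in ILC2.

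By edgeR's F-tests over the 4 times, 0 of the 10 genes were called in ILC3 or in ILC2, and the lowest adjusted p among them was 0.991. None reached an unadjusted p under 0.05. The background was 0% of 15339 genes in each case, with 669 genes in ILC3 and 516 in ILC2 at an unadjusted p under 0.05, and DESeq2 called 31 genes in ILC3 and 24 in ILC2, none of them in the set. The interaction of cell type and time called 0 of the 10 and 0% of all genes (307 at an unadjusted p under 0.05, 2 by DESeq2). ZT16 minus ZT4 and ZT23 minus ZT10 likewise called 0 of the 10 in either cell type. All genes gave 0%, with 511 (ZT16 minus ZT4) and 1253 (ZT23 minus ZT10) at an unadjusted p under 0.05 in ILC3, and 724 and 445 in ILC2. The median log2 difference of the 10 genes for ZT16 minus ZT4 was 0.69 in ILC3 and -0.09 in ILC2, and for ZT23 minus ZT10 it was 0.20 in ILC3 and -0.56 in ILC2. The medians over all genes lay between -0.04 and 0.01. With 1 or 2 libraries at a time, changes of that size were not detectable beyond the spread.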

How the data were processed

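PolyA RNA of sorted ILC3 and ILC2 was sequenced in 15 libraries. The authors deposited raw read counts per gene under Entrez identifiers with gene lengths, which came from featureCounts on mm10 according to the submitters' processing notes. The sources used here do not name the aligner, the strand setting or the rule for reads with several matches. Of 22797 genes, 22718 were named through the RefSeq table of GRCm38.p6. The 10 genes, the gene lists and the alternatives were chosen with earlier results of these data known.

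Counts were filtered with filterByExpr (minimum count 10, 15339 genes kept), scaled by TMM and then modelled by edgeR 4.0.16 under R 4.3.3 as 8 group means and 7 residual degrees of freedom. Cell types were compared as the mean over the 4 ILC3 groups minus the mean over the 4 ILC2 groups. Benjamini-Hochberg adjustment ran over all genes tested, and 0.05 was the threshold. Ratios within a library used counts plus 0.5. Alternatives were library size as the only scaling, DESeq2 1.42.0, no filter, a replicate block, each cell type alone, each library left out in turn and, chosen after seeing the data, 3 libraries that stand apart left out and the 14 numbered libraries without a block. All 10 genes were named. From each list, up to 3 called genes with the smallest p in each direction were named, some genes that this rule chooses are not reported here, and other examples were chosen after their values were seen. The fit was tested on simulated data. Replicates of a group differed beyond sampling noise (chi-square per degree of freedom 22.04 to 229).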

Additional observations from a re-analysis of the deposited data

Results flagged for a closer look

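In each of 20 groups of values (10 genes in 2 cell types), Dixon's criterion at 95% set the highest and lowest library against the others. In all, 4 values stood apart, where chance flags about 1 in 20 groups. The 4 values came from 2 libraries, each flagged on 2 CD3 genes, and the CD3 genes varied together in ILC3. The 20 groups are thus not independent, and an excess over chance cannot be read from this count. In ILC3, ZT4 replicate 1 was far below the next library for Cd3d (17.9 CPM, next 83.0) and for Cd3g (50.2 CPM, next 214). In ILC2, ZT23 replicate 1 was far below the next library for Cd3d (11.6 CPM, next 35.0) and for Cd3e (17.7 CPM, next 52.9). The cause was not tested. The 2 libraries also differed from their groups in other marker genes: ILC3 ZT4 replicate 1 had the highest sum of ILC3 markers (2137 CPM, against a median of 1015 in ILC3), and ILC2 ZT23 replicate 1 had the lowest sum of ILC2 markers (1395 CPM, against a median of 2119 in ILC2).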

How the results depend on the processing

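In ILC3 against ILC2, Cd3d, Cd3e, Cd3g, Cd8a, Cd8b1, Cd28, Cd5 and Cd6 kept their direction and their call in 21 of 21 alternatives, Zap70 was called in none of them, and Trbc2 in 12. Leaving out each library in turn gave 8 to 9 of the 10 genes called and 3270 to 4214 of all genes. The counts of all genes over time moved most. DESeq2 called 31 genes over time in ILC3 and 24 in ILC2, 2 for the interaction, 2 in ILC3 and 4 in ILC2 for ZT16 minus ZT4, and 24 in ILC3 and 5 in ILC2 for ZT23 minus ZT10, where edgeR called 0. Without the low-count filter, ZT23 minus ZT10 gave 1 gene in ILC3 and 2 in ILC2. Leaving out a library gave 0 to 3 genes over time in ILC3, the 3 without ZT23 replicate 1. Without the 3 libraries that stand apart there was 1 gene for ZT23 minus ZT10 in ILC3, 1 for ZT16 minus ZT4 in ILC2 and 1 over time in ILC2. The cause was not tested. None of these genes was in the set. The replicate numbers did not pair the samples throughout: in 6 of 21 pairs of groups the deviations of same-numbered libraries correlated above 0.1 (range -0.15 to 0.49). Between ILC2 and ILC3 the value was 0.49 at ZT4, 0.22 at ZT10 and -0.04 at ZT23. Whether ILC2 and ILC3 libraries of the same time and number share a pool is not stated, and the main fit treated all libraries as independent. A fit with the replicate number as a block, without ILC2 ZT16, called 9 of the 10 genes and 3873 of all genes between the cell types, against 9 and 3950 in the same 14 libraries without the block, and 0 genes in every test of time. Depth limits Cd8b1 and Cd5 in ILC3, where single libraries held as few as 3 and 1 counts.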

Other observations

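A single gamma variable segment, chosen after its values were seen, carried most of the gamma variable counts in ILC3. Trgv7, whose segment is known from gamma delta T cells of the mouse gut epithelium, had 9.49 CPM in ILC3 ZT4 replicate 1 and 115 to 332 CPM in the other 7 ILC3 libraries, against 0.244 to 3.06 CPM in ILC2. It took 18.6% of the gamma variable counts in ILC3 ZT4 replicate 1, 52.9% to 63.6% in the other 7 ILC3 libraries and 1.35% to 11.4% in ILC2. Trgv2 averaged 65.5 ± 35.9 CPM in ILC3 (SD, n = 8) and 7.79 ± 3.12 in ILC2 (n = 7), and Trgv4 averaged 33.7 ± 15.1 CPM in ILC3 and 6.95 ± 2.79 in ILC2. These counts come from short reads over segments of high similarity, so the split between segments is uncertain, and no test was run on them.

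Gzma, a granzyme gene of cytotoxic lymphocytes, had 153 CPM in ILC3 ZT4 replicate 1 and 946 to 2975 CPM in the other 7 ILC3 libraries, against 44.4 to 112 CPM in ILC2.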
